A study of Mus musculus with 8 samples.

Results

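Mouse salivary gland tumours induced by AKT were profiled after 14 days of rapamycin and without treatment, and the report sets those groups against each other. The groups were taken from the sample titles: 2 arrays of tumours on day 14 of rapamycin and 2 arrays of untreated tumours, 4 of the 8 one-colour Agilent whole mouse genome arrays in the study. The other 4 arrays were 1 tumour after 3 days of rapamycin, 2 normal parotid glands and 1 normal submandibular gland, all given as context only. The study's title names AKT as the inducing agent for every tumour. The labels used here give no strain, age, sex, promoter of the transgene, or dose of rapamycin. Whether arrays of the same group are separate animals is not stated. Every p-value below rests on a spread pooled over the day 14, untreated and parotid pairs of arrays, and part of it may be technical.

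Rapamycin binds the small protein FKBP12, encoded by Fkbp1a, and the pair blocks mTOR complex 1, the kinase complex downstream of AKT that promotes ribosome production, translation, and sterol and nucleotide synthesis. Active AKT also keeps FOXO transcription factors out of the nucleus. Salivary glands consist of acini, which secrete amylase and mucins, and of ducts. In male mice the granular ducts of the submandibular gland secrete kallikreins, renin and growth factors, and the glands lie beside muscle, fat and lymph nodes.

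A level below is the log2 of a probe's processed signal relative to the 75th percentile of its array, and a difference is the day 14 mean minus the untreated mean on that scale. The 75th percentile itself was 177 and 236 signal units on the day 14 arrays, against 966 and 972 on the untreated arrays. The mean log2 signal of 7 spike-in controls was 11.98 and 12.42 at day 14, against 12.08 and 11.97 in untreated tumours. Spike-in signal was therefore similar while gene probe signal was lower at day 14, and scaling by the spike-ins instead shifted every difference by -2.42. All directions and all rankings of arrays below are relative to the 75th percentile. The spike-in mean lay 4.51 and 4.54 log2 above that percentile at day 14, against 3.26 in the submandibular gland. Rankings of day 14 against that gland can therefore change with the scaling. The 100 brightest probes held 34.7% and 35.1% of the signal at day 14, against 16.8% and 18.6% in untreated tumours. Replicates were close for most genes: the median absolute difference between arrays was 0.216 at day 14 and 0.18 in untreated tumours, over 11023 genes that were well above background on all 8 arrays. The mean of a cell type marker list, sex chromosomes aside, differed by up to 2.66 between the untreated arrays, against 0.248 at day 14. The correlation between arrays was 0.986 within day 14 and 0.982 within untreated tumours, against 0.738 to 0.744 between the groups.

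**Figure D1:**
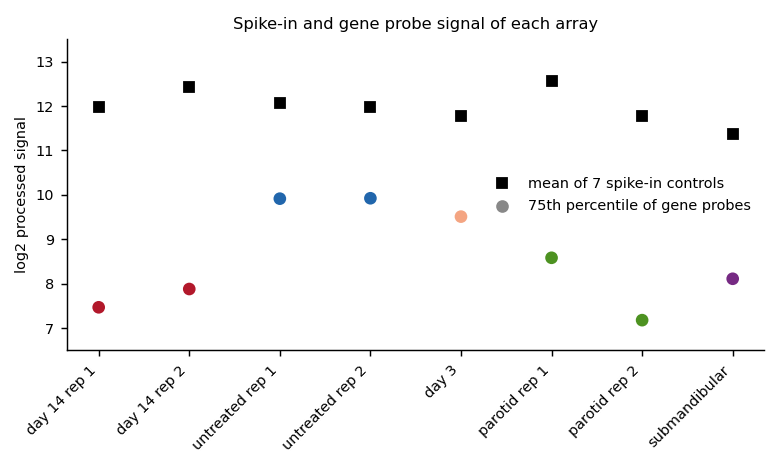
Log2 processed signal of each array: black squares are the mean of 7 spike-in controls, coloured circles the 75th percentile of gene probes, with the day 14 arrays at the left. The day 14 circles lie at 7.47 and 7.88, against 9.92 on both untreated arrays, while the squares of these 4 arrays lie between 11.97 and 12.42.

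Transcripts of the sex chromosomes did not separate these groups. The Y-linked gene Ddx3y stood at 1.72 and 1.41 at day 14, against 0.48 and -7.62 in untreated tumours. Xist, the RNA that silences an X chromosome in females, stood at -2.10 and -2.40 at day 14, against -5.45 and 4.19 in untreated tumours. Both day 14 arrays thus had Y-linked and Xist signal well above background, while untreated replicate 1 had the Y-linked signal and untreated replicate 2 the Xist signal. Sex make-up was therefore not balanced between the groups, and its part in the differences below was not tested. Whether the day 14 arrays share or pool animals was not tested, and averaging them as 1 sample gave 3781 calls in place of the 7809 given next.

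Close to equal numbers of genes were higher and lower at day 14. Of 16362 genes tested with limma, 7809 (47.7%) passed an adjusted p of 0.05, 3971 of them higher (24.3%) and 3838 lower (23.5%) at day 14. These shares are the ones to set beside each count of list members below. The median difference over all genes was 0.02. The day 14 and untreated arrays did not overlap in 84.3% of genes. The count of calls was 3736 without day 14 replicate 1, 4043 without day 14 replicate 2, 4484 without untreated replicate 1 and 3999 without untreated replicate 2. Under spike-in scaling it was 13407, of which 931 were higher at day 14. On the 4 compared arrays alone it was 10559. The main fit also pools the parotid pair, in which 16.4% of genes measured on every array differed over 2-fold. That share was 1.12% for the day 14 pair and 3.41% for the untreated pair. Slide 1 held both untreated arrays and day 14 replicate 1, and slide 2 held day 14 replicate 2. The count was 6828 with the slide as a block and 9171 on slide 1 alone, and slide 2 has no untreated array.

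Genes were also divided by the arrays on which they were detected. In a class detected in the day 14 or the untreated group alone, the direction of the differences is largely built in. Among the 11023 genes well above background on all 8 arrays, 5101 passed (46.3%), 2383 higher (21.6%) and 2718 lower (24.7%), with a median difference of -0.05, and 58.5% of them differed by less than 2-fold. Differences in this class ran between -5.94 and 13.44. A further 623 genes were well above background on both day 14 arrays and on neither untreated array, with a median difference of 5.51, and 617 of these passed. In the opposite class, 1698 genes were well above background on both untreated arrays and on neither day 14 array, with a median difference of -1.41, and 738 passed as lower and 3 as higher. The lowest signal that was well above background corresponded to -3.18 and -3.76 at day 14, against -5.13 and -5.60 in untreated tumours. Genes dim in both groups moved with this floor: 226 of them had a median difference of 1.93, and 138 passed as higher. Levels of dim genes are therefore given as bounds, or with the number of arrays on which they were measured.

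**Figure D2:**
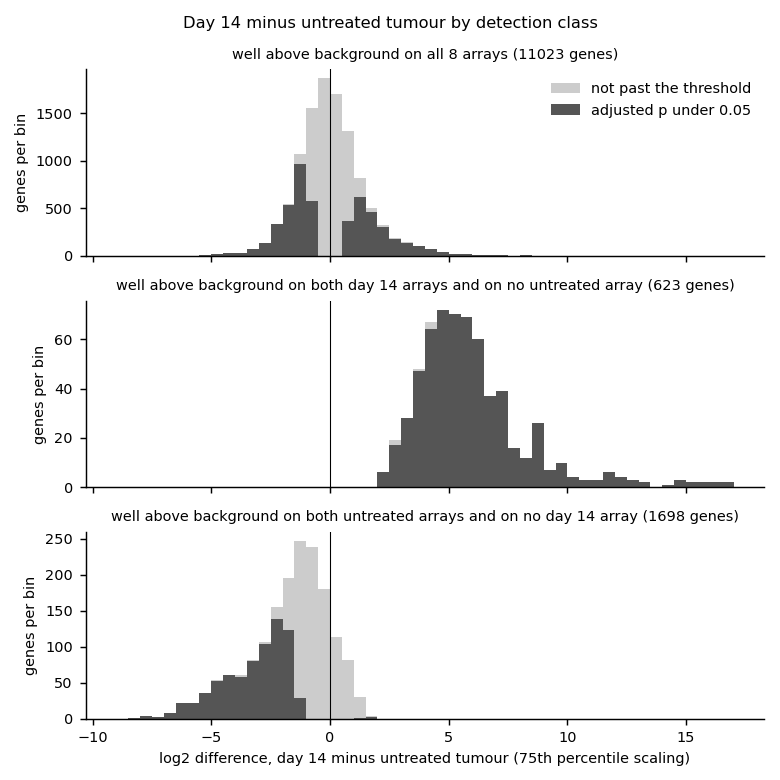
Genes per bin of 0.5 log2 against the difference, day 14 minus untreated tumour, in 3 detection classes; dark bars are genes past the adjusted p of 0.05. The 11023 genes measured on all arrays centre on -0.05. The 623 genes seen only at day 14 centre on 5.51 and the 1698 seen only in untreated tumours on -1.41, directions largely set by how these classes are defined.

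Markers of normal salivary gland were among the largest rises. In the granular duct and mucous list, all 18 members tested were higher at day 14, with a median difference of 14.64 (13.82 with dim genes at their bound), and 1 of the 18 was well above background on all 8 arrays. That member was Egf, the epidermal growth factor precursor, which reached 9.14 and 8.72 at day 14, against -3.19 and -2.79 in untreated tumours. Its difference was 11.92 ± 0.26 (SE, adjusted p = 2.48e-05), and the groups did not overlap. Egf in the submandibular gland stood at 8.03, and at 2.77 and 3.08 in the parotids, so both day 14 arrays lay above all 3 gland arrays under 75th percentile scaling. The submandibular array had Xist signal without the Y-linked signal seen at day 14. Sex and treatment therefore cannot be told apart when duct products are set against that gland. The kallikrein Klk1b24 stood at 9.57 and 9.49 at day 14 and was not well above background on either untreated array, which makes it at least 30467-fold higher (adjusted p = 0.00014). Klk1b9, Klk1b27, Klk1b16 and Klk1b21 were at least 25590-fold, 15335-fold, 14843-fold and 10551-fold higher. Klk1b4 and Klk1b26, each measured on 1 untreated array, differed by 15.87 and 15.86. The Klk1b genes are near-identical copies, so a probe may pick up several of them and their values are not independent.

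The mean level of the 18 granular duct members was 8.21 and 8.20 at day 14, against -6.35 and -5.23 in untreated tumours. It was -4.35 at day 3, 2.06 and 3.22 in the parotids and 7.61 in the submandibular gland. The day 14 arrays were above each gland array for this list under 75th percentile scaling, and their order against the submandibular gland depends on that scaling. In 12 of the 18 members both day 14 arrays lay above all 6 others, against 12.1% of all genes. Ren2 and Scgb1b27, outside this list, were also highest at day 14 under this scaling. Ren2, the renin of the submandibular duct, stood at 10.03 and 9.90 at day 14, against -0.39 and -0.50 in untreated tumours, at 9.27 in the submandibular gland, at -3.42 and 0.47 in the parotids and at 0.66 at day 3. Scgb1b27, a secretoglobin of the androgen-binding protein family, stood at 10.05 and 10.04 at day 14, against -7.20 and -3.98 in untreated tumours, with 1 untreated array measured. Its level in the submandibular gland, 9.95, was close to day 14.

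Acinar secretory genes rose in 21 of 23 members tested, with a median of 8.92. Dcpp2, of a family of salivary secreted proteins, was at least 15671-fold higher (adjusted p = 5e-05). Amy1, salivary amylase, stood at 10.49 and 10.36 at day 14, against -3.83 and 5.12 in untreated tumours. The untreated arrays were far apart for Amy1, and the difference of 9.77 had an SE of 2.55 (adjusted p = 0.0219). Pip, a secreted prolactin-inducible protein, stood at 10.10 and 9.68 at day 14, against 1.53 on the untreated array where it was measured, and it was not well above background on the other. The mean acinar level was 5.97 and 6.19 at day 14, against -2.81 and -0.15 in untreated tumours, and it was 6.36 and 7.16 in the parotids and 1.63 in the submandibular gland. The day 14 arrays therefore carried high levels of both the list that was highest in the parotids and the list that was highest in the submandibular gland. Ano1, the acinar calcium-activated chloride channel, was the member that fell, by 0.83.

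Markers of tissue that lies outside the gland lobules rose as well. Of 15 skeletal muscle genes, 14 were higher at day 14 (median 10.47, or 9.82 with dim genes at their bound), and in all 15 both day 14 arrays lay above the other 6 arrays, a pattern found in 12.1% of all genes. Acta1, skeletal muscle actin, stood at 7.13 and 6.87 at day 14, against -3.22 and -3.73 in untreated tumours. Myh8 and Myh4, myosin heavy chains of muscle, had the largest differences over all genes after Klk1b24 and were at least 33432-fold and 15618-fold higher, and Ckm, muscle creatine kinase, was at least 1480-fold higher. Parotid replicate 2 also carried muscle signal, with a mean list level of 2.47, against -3.69 in parotid replicate 1. All 10 adipocyte genes rose (median 8.07, or 7.73 with the bounds), among them Plin1, the perilipin of fat droplets, at least 276-fold. Cfd, adipsin, stood at 5.85 and 5.73 at day 14, against -0.79 and -7.00 in untreated tumours, of which 1 array was measured, and 4.72 at day 3.

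Lymphocyte markers rose, and most were dim in untreated tumours, where 6 of 10 B and plasma cell genes and 7 of 12 T and cytotoxic cell genes were not well above background on either array. Of 10 B and plasma cell genes, 9 rose (median 7.56, or 6.66 with dim genes at their bound). Of 12 T and cytotoxic cell genes, 8 rose (median 5.34, or 3.96 with the bounds). Cd3d, a T cell receptor component, was at least 188-fold higher. Both lists also differed strongly between gland arrays: the B and plasma cell mean was 1.81 and 1.77 at day 14, against -5.67 and -6.04 in untreated tumours, and 2.38, -1.83 and -1.25 in parotid replicates 1 and 2 and the submandibular gland.

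Supporting cells of the epithelium and its vessels showed smaller rises. Basal and myoepithelial genes had a median of 3.42, with 6 of 11 higher and 1 lower. Those that rose were the contractile genes and Trp63, the basal cell factor, which stood at 1.77 and 1.35 at day 14, against -3.08 and -3.10 in untreated tumours. Cnn1, calponin of contractile cells, stood at 5.53 and 5.34 at day 14, against -0.38 and -1.78 in untreated tumours. Endothelial genes had a median of 1.65, with 8 of 14 higher and none lower under this scaling (median -0.77 under spike-in scaling). Vwf, the von Willebrand factor of vessels, differed by 4.38 ± 0.66 (SE, adjusted p = 0.0032). Fibroblast and matrix genes were split, with 5 of 15 higher, 1 lower and a median of -0.01. Decorin (Dcn) differed by 4.04 and Pdgfra, a growth factor receptor of mesenchymal cells, was at least 24.6-fold higher, while the type I collagen Col1a1 was the member that fell, by 2.35. In the nerve and Schwann cell list, 5 of 9 rose and 1 fell (median 1.63, and -0.79 under spike-in scaling).

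Squamous, neutrophil and macrophage markers included members that fell. Squamous and cornified genes fell in 9 of 13 members and rose in none (median -2.26, or -2.15 with dim genes at their bound). The stress keratin Krt6a was at least 14.4-fold lower and Sprr1a, a cornified envelope precursor, at least 33.6-fold lower. Krt16 stood at -2.05 and -2.09 at day 14, against 2.45 and 2.19 in untreated tumours and 4.11 at day 3. Neutrophil genes are few on this scale, with 4 tested and 2 lower: S100a8, an alarmin of neutrophils and stressed keratinocytes, was at least 34.2-fold lower, and its partner S100a9 fell by 4.48. Macrophage and dendritic genes were lower in 7 of 17 and higher in 3 (median -0.87, or -0.43 with the bounds). Cd68, a lysosomal glycoprotein of macrophages, stood at -1.25 and -1.41 at day 14, against 1.45 and 1.79 in untreated tumours, whereas Cd163, a scavenger receptor of resident macrophages measured on 1 untreated array, differed by 5.25. In 10 of the 17 both day 14 arrays lay below all 6 others, which was the case for 14.7% of all genes. The mast cell genes Mcpt4 and Cpa3 were not well above background on any array of either group, and no fold is given for them. Kit, the receptor that also marks other cells, was measured on all arrays and differed by 1.26 (-1.16 under spike-in scaling). Neither erythroid gene tested passed (Alas2 at 1.13, adjusted p = 0.15, and Hba-a1 at 1.28, adjusted p = 0.155).

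Duct epithelial genes were split. Of 21 tested, 9 rose and 7 fell (median -0.12). Ascl3, a factor of duct cells rich in ion transporters, was at least 206-fold higher, the chloride channel Cftr, measured on 1 untreated array, differed by 7.12 and Atp6v1b1, a proton pump subunit, was at least 7.79-fold higher. The epithelial sodium channel subunits Scnn1b, Scnn1a and Scnn1g differed by 4.55, 3.92 and 3.66. Of those that fell, Slc9a3, a sodium-proton exchanger, differed by -4.50, and the others, between -2.22 and -0.80, were the keratins Krt19 and Krt8, the adhesion proteins Cdh1, Cldn7 and Epcam and the factor Klf5. In bulk tissue, more cells of a type and more RNA per cell cannot be told apart, and this holds for every list given here.

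**Figure D3:**
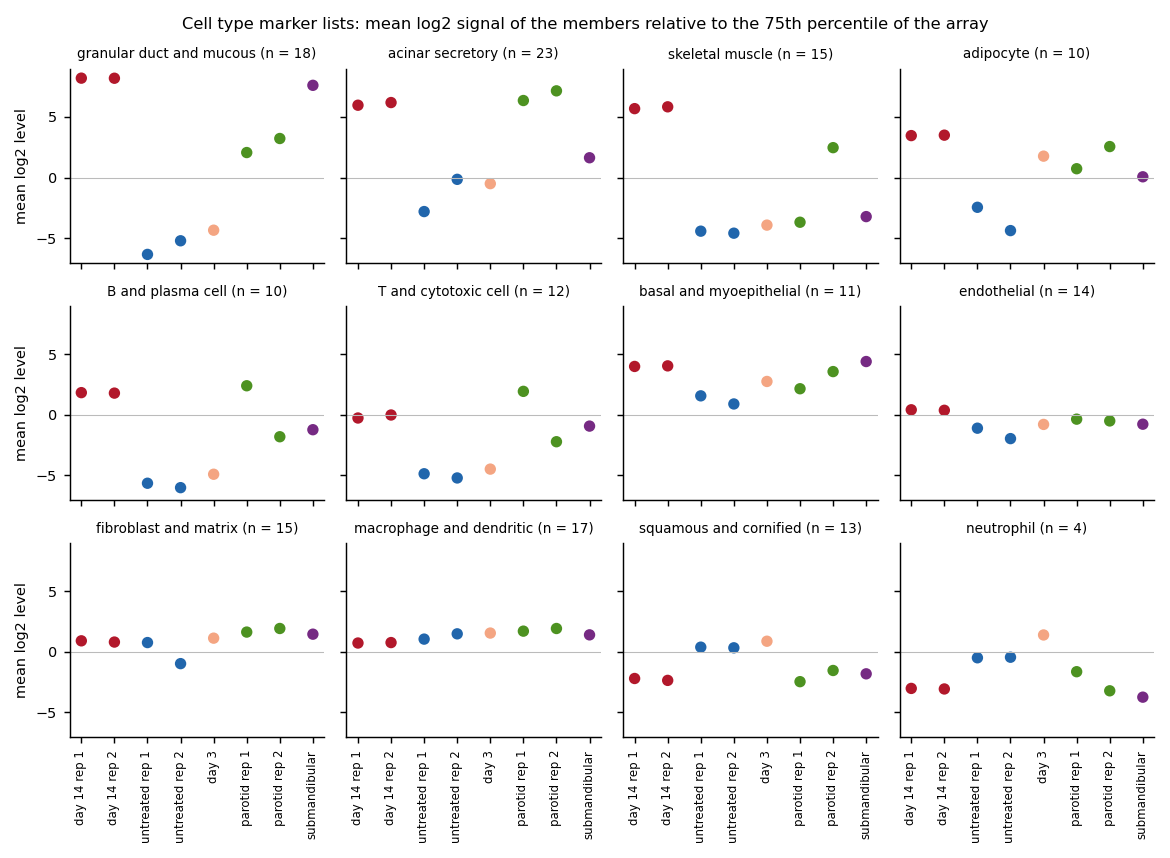
Mean level of 12 cell type marker lists on each array, in log2 relative to the 75th percentile, with the day 14 arrays at the left in red and untreated tumours in blue; n is the number of genes tested. The day 14 points of the granular duct list lie at 8.21 and 8.20, against -6.35 and -5.23 in untreated tumours, and those of the squamous list at -2.22 and -2.38, against 0.37 and 0.31.

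Among genes measured on every array, 47 of 2383 rises and 19 of 2718 falls belonged to a cell type list. These lists hold few genes of the class, so the counts cannot show how much of the change follows tissue make-up. Among called genes with a gene name and no overlap between groups, 14 of the 50 largest rises were list members. Of the 50 largest falls, 0 were. The lists were chosen with earlier results known and leave out gland and muscle genes such as Spt2, Abpb and Cox6a2. These counts therefore do not separate tissue make-up from other change. The 15 largest rises were led by Spt2, a secreted salivary protein, at 13.44 ± 1.25 (SE, adjusted p = 0.000663). Spt2 stood at 9.98 and 9.80 at day 14, against -4.67 and -2.43 in untreated tumours. Other gland secretory products were Abpb of the androgen-binding proteins at 12.09, Lpo, the lactoperoxidase of saliva, at 8.92 and Car6, the secreted carbonic anhydrase, at 8.48. The muscle genes were Acta1 at 10.47, Tcap, a sarcomere protein, at 10.39, Tnni2, fast troponin I, at 9.82 and Cox6a2, the muscle form of a respiratory subunit, at 9.46. The metabolic enzymes Hsd11b1, Cyp2f2 and Adh1 differed by 8.57, 8.29 and 8.17. The 3 probes of Adh1 ranged between 0.47 and 8.17.

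The 15 largest falls of the class were of another kind, with proliferation and Wnt feedback genes among them. Plat, tissue plasminogen activator, stood at 0.13 and 0.44 at day 14, against 6.16 and 6.28 in untreated tumours, a difference of -5.94 ± 0.25 (SE, adjusted p = 0.000134). Its level was 6.41 at day 3 and between -0.41 and 1.36 in the 3 glands. Apcdd1 and Nkd1, inhibitors of Wnt signalling that the pathway itself induces, fell by 5.70 and 5.13. Melk, Ccna2 and Cenpf, a mitotic kinase, cyclin A2 and a kinetochore protein, differed by -5.58, -5.11 and -4.90. The 2 probes of Cenpf disagreed in size, at -4.90 and -1.76. The CDK inhibitor p21 (Cdkn1a) fell beside these genes, with -1.48 and -1.42 at day 14, against 3.84 and 3.27 in untreated tumours. Gpx2, a glutathione peroxidase of epithelia, differed by -5.66, Clic6, an intracellular chloride channel, by -5.09 and Sema3b, a secreted guidance protein, by -4.93. Shcbp1, which binds the adaptor Shc, differed by -5.12 and Sapcd2 by -5.14.

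Setting the same genes against the glands showed where day 14 tumours lay outside all other arrays. Of the 2718 falls, 1689 lay below all 3 gland arrays, 836 within their range and 193 above it. Of the 2383 rises, 922 lay above all glands, 1118 within and 343 below. Counting the untreated and day 3 tumours too, both day 14 arrays lay below all 6 others in 1451 of the falls (53.4%) and above them in 764 of the rises (32.1%). Over all genes of the class, called or not, the same pattern held for 18.1% and 9.49%. The called genes were picked by their difference from the untreated arrays, so part of their higher share is built in. The largest of these falls were Igfbp4, a binding protein of insulin-like growth factors, and Cdkn3, a phosphatase that acts on CDK1 and CDK2. Igfbp4 stood at -2.89 and -2.86 at day 14, against 2.44 and 2.42 in untreated tumours, with glands between -1.60 and -0.66. Cdkn3 stood at -2.40 and -2.43 at day 14, against 2.76 and 2.96 in untreated tumours, with glands between -2.13 and -0.97. Fbln1, a matrix protein, Chaf1a, a histone chaperone of replicating DNA, and Fgfrl1, a receptor-like protein of the FGF family, fell by 5.01, 4.75 and 4.50. Pcbd1, a pterin enzyme and cofactor of the transcription factor HNF1, and Mal, a membrane traffic protein, fell by 4.49 and 4.48. Fbln1 stood close to the glands, at -0.73 and -0.85 at day 14, against -0.67 to -0.29 in the glands and 4.27 and 4.18 in untreated tumours. The rises beyond all others were gland and muscle genes and Slc2a4, the insulin-regulated glucose transporter of muscle and fat, at 5.44 and 5.24 at day 14, against -2.06 and -2.22 in untreated tumours.

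**Figure D4:**
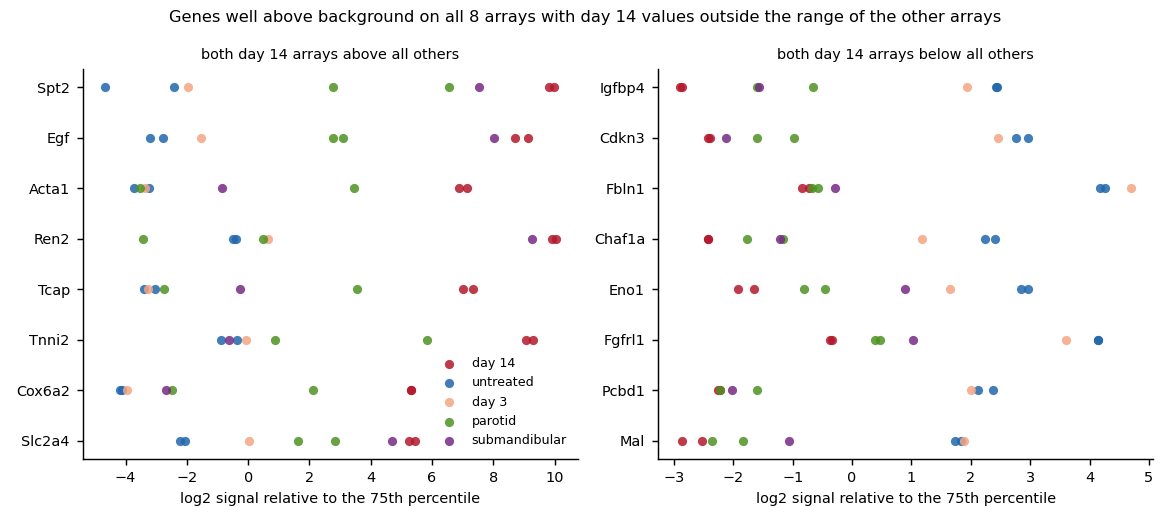
Levels on all 8 arrays of the 8 genes with the largest rises (left) and the 8 with the largest falls (right) for which both day 14 arrays lay outside the range of the other 6; each point is an array, in log2 relative to the 75th percentile. The day 14 points of Igfbp4 lie at -2.89 and -2.86, against 2.44 and 2.42 in untreated tumours.

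Cell division genes fell together. All 35 genes of the mitosis and spindle list were lower at day 14 and past the threshold, with a median of -4.74, and 38 of 39 DNA replication genes fell, with a median of -2.91 (-4.40 and -2.60 with dim genes at their bound). Among members measured on all arrays, the counts were 14 of 14 (median -4.60) and 30 of 31 (median -2.59). The mean mitosis level was -2.25 and -2.36 at day 14, against 2.30 and 2.26 in untreated tumours and 1.68 at day 3. It was -1.53, -2.78 and -2.63 in the glands, so day 14 lay within the gland range. The mean replication level was -0.35 and -0.36 at day 14, against 2.63 and 2.62 in untreated tumours, and between -0.07 and 0.39 in the glands, all above day 14. In 17 of the 39 replication genes, both day 14 arrays lay below all 6 others, against 3 of the 35 mitosis genes and 14.7% of all genes. The gland, muscle, fat and lymphocyte lists rose on the same arrays, and their part in these and the following falls was not tested. Cyclin B1 (Ccnb1) was measured on 1 day 14 array and fell by 5.65, with -3.28 and -2.73 at day 14, against 2.68 and 2.62 in untreated tumours. Cdk1, the mitotic kinase, was at least 48.9-fold lower on its brightest probe, and its other probe differed by -0.99. Nek2, a kinase of the centrosome, was at least 23.8-fold lower. Gins2, a subunit of the active replication helicase, was at least 21.4-fold lower, and Cdc6, which loads the helicase onto DNA, at least 8.24-fold lower.

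Promoter letters were counted for these lists because their members moved together. The letters TTTGAA are those of the CHR element, at which mitotic genes are repressed in resting cells, and CCAAT is the CCAAT box. Of the 35 mitosis genes, 29 had a RefSeq promoter of 250 bases before to 50 after the start. TTTGAA on either strand was in 19 of these (65.5%) and CCAAT in 21 (72.4%), against 14.7% and 42.5% of 10912 tested genes with a promoter. In the DNA replication list, by contrast, TTTGAA was in 3 of 31 promoters (9.68%). TTTCGCGC, the letters of an E2F site, was in 7 (22.6%), against 0.715% of tested genes. TTTCGCGC was not counted in the mitosis list, nor CCAAT in the replication list, and TTTCGCGC occurs unmarked in the Cdk1 bases below. Below are bases -150 to -1 of the sense strand of 2 genes, in build GRCm38.p6, with TTTGAA and CCAAT (or their reverse complements) in capitals. Cdk1, of the mitosis list, is at chr10:69352913-69353062 on the minus strand. Cdkn3, which is in neither list but among the largest falls given above, is at chr14:46760391-46760540 on the plus strand.
Cdk1: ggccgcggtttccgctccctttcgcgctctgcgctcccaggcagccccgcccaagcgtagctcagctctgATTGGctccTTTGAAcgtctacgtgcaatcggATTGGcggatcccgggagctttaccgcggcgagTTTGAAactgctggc
Cdkn3: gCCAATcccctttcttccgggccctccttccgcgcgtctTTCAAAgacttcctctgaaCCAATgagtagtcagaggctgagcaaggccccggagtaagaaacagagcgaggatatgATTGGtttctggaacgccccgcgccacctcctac
A match describes these letters in this window and says nothing about binding. The shares cover list members whether or not they passed the threshold, so they describe the lists.

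Regulators of the G1 phase did not move as a block. Of 8 tested, 3 fell and 1 rose (median -0.04). Cdk4, the G1 kinase, stood at 0.04 and -0.15 at day 14, against 3.05 and 2.97 in untreated tumours. Ccnd2, cyclin D2, was the member that rose, by 2.36 (-0.06 under spike-in scaling), and E2f3, a transcription factor of S phase genes, fell by 1.46. Inhibitors of the cycle did not rise as a list: 6 of 17 CDK inhibitors and p53 targets fell and 2 rose (median -0.32). Over all genes, 23.5% fell and 24.3% rose. Cdkn2b, p15, fell by 3.53 and Cdkn2a, which encodes p16 and p19ARF, was at least 3.28-fold lower.

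Wnt targets and feedback inhibitors fell. Of 23 tested, 15 fell and 2 rose, with a median of -3.08 (-2.07 with dim genes at their bound). Notum, a secreted enzyme that inactivates Wnt proteins, was at least 40.6-fold lower. Sp5, a transcription factor induced by beta-catenin, stood at -2.15 and -2.16 at day 14, against 4.95 and 4.58 in untreated tumours, and at 4.64 at day 3. Dkk2, a secreted Wnt antagonist, stood at -1.72 and -2.10 at day 14, against 4.92 and 4.73 in untreated tumours. In the 3 glands Sp5 and Dkk2 were lower still, between -5.94 and -4.87 and between -6.24 and -3.65, where the lowest signal well above background corresponded to -3.93 to -2.95. The mean list level was -1.10 and -1.37 at day 14, against 1.70 and 1.44 in untreated tumours, above each gland (-2.34 to -1.76). Beta-catenin itself (Ctnnb1) fell by 1.28 (adjusted p = 0.00618) and Apc by 0.95 (adjusted p = 0.0438), and the 4 probes of Apc ranged between -1.32 and 1.22.

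Genes of ribosome production, translation and tRNA charging fell more often than they rose. In ribosome biogenesis, 27 of 32 fell and 1 rose (median -1.32). In 23 of the 30 members measured on every array both day 14 arrays lay below all 6 others, a pattern found in 18.1% of such genes. The mean level of the 32 was 0.67 and 0.73 at day 14, against 2.03 and 2.06 in untreated tumours, and between 1.28 and 1.41 in the glands. Gar1 and Nhp2, subunits of the RNA pseudouridylation complex, fell by 3.42 and 3.09, and Polr1e, a subunit of RNA polymerase I, by 2.44. Translation factors fell in 17 of 37 and rose in 3 (median -0.72), with 21 of 37 below all other arrays. Eif2s1, the alpha subunit of eIF2, stood at 0.75 and 0.83 at day 14, against 2.94 and 2.99 in untreated tumours. Eif5a and Eif3i fell by 2.01 and 1.82. Aminoacyl-tRNA synthetases fell in 9 of 20 and rose in 2 (median -0.53), led by Farsb, of phenylalanyl-tRNA synthetase, at -3.08.

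The 68 cytosolic ribosomal protein genes had a median of 0.24, with 10 higher and 10 lower, and the median was -0.61 with quantile normalization, -0.82 with the deposited log2 values and -0.14 with the mean of a gene's probes. The direction of this list is therefore not settled, and its share of calls, 20 of 68, was below that of all genes (47.7%). Rpl4 fell by 2.19. Rplp0 differed by 1.72 and Rpl21 by 1.91 (-0.70 and -0.51 under spike-in scaling), but the probes of each ran from below 0, at -1.10 and -1.44, to above it. Ribosomal protein probes can also read near-identical processed pseudogenes.

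Proteasome subunits, which form the complex that degrades tagged proteins, fell. Of 34 tested, 24 were lower and none higher (median -1.20). In 22 both day 14 arrays lay below all 6 others, against 18.1% of genes measured on every array. Psmd13 and Psmd1, of the regulatory particle, fell by 2.51 and 2.10, and Psma4, of the core, by 2.22. The mean level was 3.25 and 3.31 at day 14, against 4.39 and 4.46 in untreated tumours, 4.08 at day 3 and 3.68 to 4.10 in the glands.

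Biosynthetic and glycolytic enzymes were lower too. Sterol and fatty acid genes fell in 21 of 31 and rose in 2 (median -1.64). Fads2, a fatty acid desaturase, stood at -2.56 and -2.63 at day 14, against 3.12 and 3.1 in untreated tumours. Fdps, which makes farnesyl diphosphate, fell by 4.11 on its brightest probe and differed by -1.12 on the other. Cyp51, a sterol demethylase, was at least 11.1-fold lower. The mean level of this list was 0.36 and 0.29 at day 14, against 2.11 and 2.09 in untreated tumours, and 0.69 to 1.11 in the glands. Pentose phosphate and nucleotide enzymes fell in 14 of 21 and rose in none (median -1.12), with the purine enzymes Impdh2, Atic and Gart at -2.35, -2.29 and -2.27. Glycolysis and hypoxia genes fell in 16 of 28 and rose in 3 (median -1.24). Car9, a carbonic anhydrase induced by hypoxia and measured on 1 day 14 array, fell by 5.11 and Pfkl, liver phosphofructokinase, by 3.18. Eno1, enolase, fell by 4.69 on its single probe.

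Mitochondrial respiration stood apart from these enzymes. Of 40 respiratory and citric acid cycle genes, 9 were higher and 4 lower, with a median of 0.10 that was -0.16 with quantile normalization, -0.26 with the deposited log2 values and -2.32 under spike-in scaling. Ndufa1, of complex I, differed by 1.56 (-0.85 under spike-in scaling), and Ndufv2 of the same complex fell by 1.52. Mean levels were 5.21 and 5.31 at day 14, against 5.03 and 5.21 in untreated tumours.

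**Figure D5:**
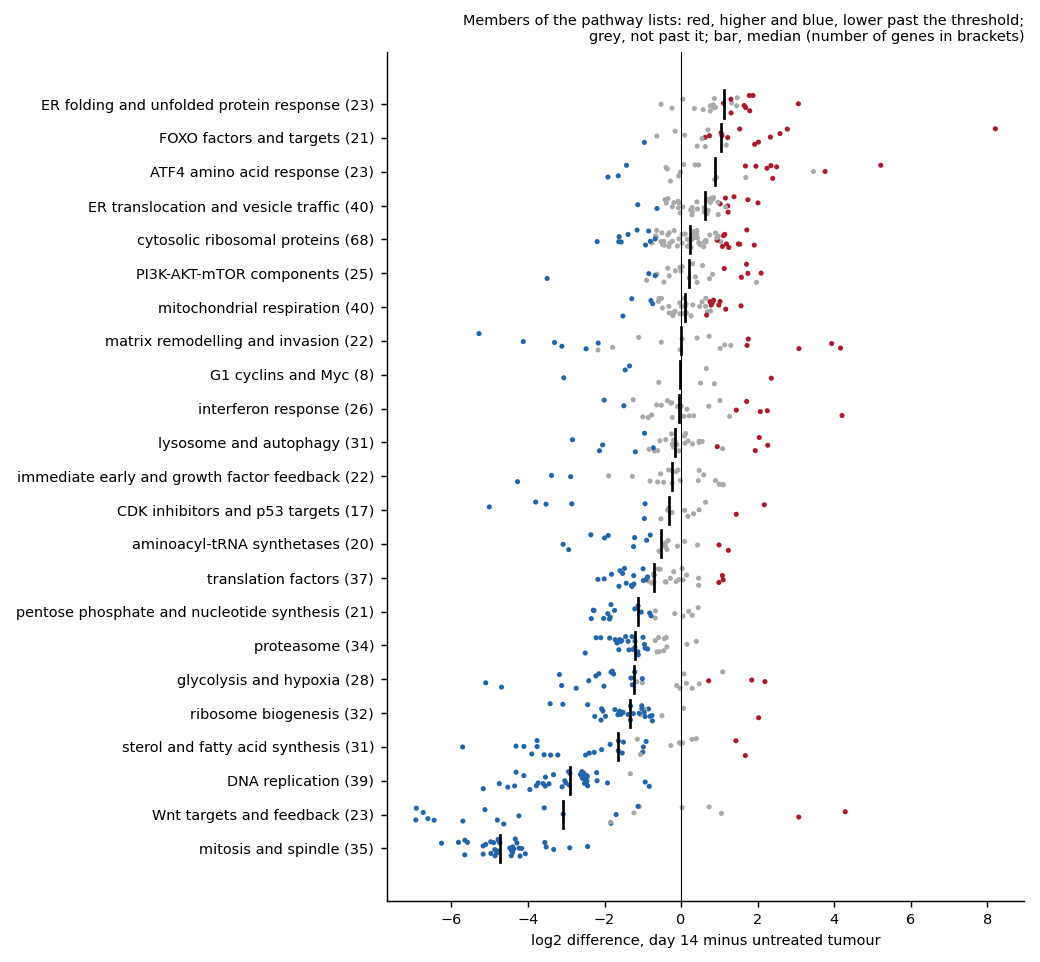
Difference, day 14 minus untreated tumour, of each member of 23 pathway lists in log2, ordered by the median (black bar); red and blue points are members past the threshold, higher and lower, and the numbers in brackets are genes tested. Mitosis, Wnt feedback and DNA replication have medians of -4.74, -3.08 and -2.91, and ER folding and FOXO targets 1.11 and 1.04, both below 0 under spike-in scaling.

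Some genes of the secretory pathway were higher at day 14 under 75th percentile scaling. In the ER folding and unfolded protein response list, 9 of 23 rose, against 21.6% of all genes measured on every array, and none fell, with a median of 1.11 (-1.31 under spike-in scaling). All 23 were well above background on every array. Herpud1, of ER-associated degradation, stood at 6.20 and 6.04 at day 14, against 2.98 and 3.13 in untreated tumours. Dnajc3, a co-chaperone of the ER, stood at 3.76 and 4.32 at day 14, against 2.03 and 2.29 in untreated tumours, and Atf6, an ER stress sensor, differed by 1.79 while its other probe gave 0.06. Dnajc3 and Atf6 were below 0 under spike-in scaling, at -0.54 and -0.63. ER translocation and vesicle traffic had 7 of 40 higher, a share below that 21.6%, and 2 lower (median 0.64, and -1.78 under spike-in scaling). Lman1 and Mcfd2, which together carry cargo out of the ER, differed by 2.01 and 1.74 (-0.41 and -0.67 under spike-in scaling). The ER folding mean was 4.11 and 4.07 at day 14, against 2.98 and 3.02 in untreated tumours and 3.47 to 4.52 in the glands. It moved with the acinar and granular duct lists, whose mean levels rose on the same arrays, and the part of these secretory cells in the result was not tested.

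The ER stress element, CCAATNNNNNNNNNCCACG on either strand, was in 8 of the 20 ER folding genes with a promoter (40.0%), against 0.165% of tested genes. That share covers members whether or not they passed the threshold, so it describes the list and not the day 14 difference. It was in 4 of the 8 promoters of members that rose. Bases -150 to -1 of Dnajc3, at chr14:118937782-118937931 on the plus strand of GRCm38.p6 (RefSeq), are shown with the fixed letters of the element in capitals.
Dnajc3: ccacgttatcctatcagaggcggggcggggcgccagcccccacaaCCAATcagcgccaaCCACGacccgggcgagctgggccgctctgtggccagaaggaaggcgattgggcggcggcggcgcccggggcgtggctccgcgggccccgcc

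Amino acid response genes, targets of the factor ATF4, were higher in 8 of 23 (24.3% of all genes were) and lower in 3, with a median of 0.87 (-1.54 under spike-in scaling). Their mean level was 2.71 and 2.84 at day 14, against 1.86 and 1.62 in untreated tumours, with 2.88 in parotid replicate 1, 2.32 in the submandibular gland and a level above day 14 in parotid replicate 2. The gland lists rose on the same arrays, and their part in this and the following rises was not tested. Chac1, which degrades glutathione, stood at 3.88 and 4.16 at day 14, against 0.94 and -0.43 in untreated tumours, and at 3.30 to 5.87 in the glands. Slc1a5, a glutamine transporter, stood at 5.21 and 5.26 at day 14, against 2.70 and 2.78 in untreated tumours. Aldh1l2, a mitochondrial folate enzyme, differed by 5.22. The members that fell were Stc2, a secreted glycoprotein, at -1.91, Ddit4, an inhibitor of mTOR complex 1, at -1.64 and Psat1, of serine synthesis, at -1.43. TGATGNAA, the amino acid response element, was in 6 of 19 promoters of the list (31.6%), against 2.8% of tested genes. This share, too, covers members whether or not they passed the threshold and describes the list. Bases -200 to -51 of Chac1, at chr2:119351042-119351191 on the plus strand of GRCm38.p6 (RefSeq), hold its reverse complement, with the fixed letters in capitals.
Chac1: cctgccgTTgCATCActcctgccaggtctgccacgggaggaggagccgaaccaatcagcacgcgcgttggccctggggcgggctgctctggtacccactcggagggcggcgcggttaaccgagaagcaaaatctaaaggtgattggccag

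FOXO factors and targets were higher in 12 of 21 and lower in 1, with a median of 1.04 (-1.37 under spike-in scaling). The mean level was 2.72 and 2.74 at day 14, against 1.43 and 1.37 in untreated tumours and 1.89 at day 3. It was 2.02 to 2.21 in the glands, so both day 14 arrays lay above all others under 75th percentile scaling. Pink1, a kinase of mitochondrial quality control, stood at 3.38 and 3.59 at day 14, against 0.61 and 1.19 in untreated tumours and 2.47 at day 3. Pdk4, which restrains pyruvate oxidation, stood at 2.70 and 2.28 at day 14, against -0.07 and -0.50 in untreated tumours. Trim63, a ubiquitin ligase of muscle fibres, was at least 66-fold higher. It moved with the skeletal muscle list, whose mean was 5.69 and 5.84 at day 14, against -4.43 and -4.60 in untreated tumours, and the part of muscle in this list was not tested.

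Components of the AKT and mTOR pathway were split: 5 of 25 were higher and 3 lower, with a median of 0.20 (-2.21 under spike-in scaling). Both shares were below those of all genes (24.3% and 23.5%). Fkbp1a, the protein that binds rapamycin, stood at -2.33 and -1.75 at day 14, against 1.59 and 1.32 in untreated tumours, and at 0.91 at day 3. Its difference was -3.50 ± 0.30 (SE, adjusted p = 0.000561), and the glands, at -1.09 to -0.48, lay above day 14. Deptor, an mTOR inhibitor, differed by 2.09 (-0.33 under spike-in scaling). Akt1 differed by -0.63 and did not pass (adjusted p = 0.0583), with 4.12 and 4.38 at day 14, against 4.78 and 4.97 in untreated tumours. Akt2 fell by 0.84 (adjusted p = 0.0478). Mtor differed by -0.31 (adjusted p = 0.367), and its other probe by -1.90.

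Signalling, degradation and immune lists were mixed, beside 24.3% of all genes higher and 23.5% lower. The interferon and matrix medians below, like those of the G1, fibroblast and duct lists, changed sign under other settings. Lysosome and autophagy genes had 4 of 31 higher and 6 lower (median -0.16), with Map1lc3a, an LC3 protein of autophagosomes, at 2.26 (-0.15 under spike-in scaling), Npc1, a cholesterol exporter of the lysosome, at -2.84, and Gla, alpha-galactosidase A, at -2.13 on one probe and 0.42 on the other. Immediate early and growth factor feedback genes had 3 of 22 lower and none higher (median -0.24). Atf3, a stress-induced factor, stood at -0.44 and -0.14 at day 14, against 3.14 and 3.06 in untreated tumours. Etv4, an ETS factor downstream of growth factor receptors measured on 1 day 14 array, fell by 4.27 and Areg, an EGF receptor ligand, was at least 2.01-fold lower. Interferon response genes had 5 of 26 higher and 2 lower (median -0.04). Those that rose included the T cell chemokine Cxcl9 at 4.20 and Irf1 at 2.25 (-0.17 under spike-in scaling), and Ifi27 differed by 2.07 (-0.35 under spike-in scaling). They moved with the T cell list, whose mean was -0.29 and -0.04 at day 14, against -4.89 and -5.24 in untreated tumours, and its part was not tested.

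Matrix remodelling genes had 5 of 22 higher and 6 lower (median 0.002), near the shares over all genes (24.3% and 23.5%). Spp1, osteopontin, stood at 1.16 and 0.66 at day 14, against 5.19 and 4.88 in untreated tumours, and at 5.66 at day 3. Mmp7, matrilysin, measured on 1 day 14 array, fell by 5.28 and Itgb6, an epithelial integrin, differed by 4.16.

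The largest falls over all genes lay outside the lists above, apart from Notum. Bex1, an X-linked gene of the brain-expressed family, stood at -5.16 and -4.87 at day 14, against 3.14 and 2.98 in untreated tumours, and was at least 92.5-fold lower. Bhmt and Dmgdh, consecutive enzymes of betaine breakdown in the cytosol and the mitochondrion, were at least 71.4-fold and 87.2-fold lower. Both were high in untreated tumours, at 2.83 and 2.55 for Bhmt and 2.75 and 3.20 for Dmgdh, and both stood between -6.24 and -4.97 in the glands. Slc30a2, a zinc exporter, stood at -2.61 and -2.48 at day 14, against 4.81 and 4.49 in untreated tumours, and Prss56, a serine protease, at -2.71 and -3.35, against 3.71 and 4.75. Crct1, Lyg1, a lysozyme relative, Ano9, an anoctamin, and Gsdma, a gasdermin of surface epithelia, were at least 49.2-fold, 47.9-fold, 47.0-fold and 37.0-fold lower. All 10 of the largest falls stood between 1.21 and 3.95 on the day 3 array, which has no replicate.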

How the data were processed

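Intensity values come from 8 Feature Extraction 10.7.3.1 scanner files deposited by the authors. Per the file headers, the processed signal had a fitted spatial surface subtracted and a multiplicative trend removed, and probes were placed on mm8. Here log2 of it, minus the array's 75th percentile, was averaged over a probe's spots. Controls and flagged spots were left out (124 probes lost); no spot was saturated. The authors also deposited a table of log2 values (column medians 5.52 to 5.57), used as an alternative: its day 14 minus untreated differences correlate at 0.99 with those of the scanner files (slope 0.942), so its scale and direction are known and its normalization is not given in the sources used here.

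Probes were kept where all arrays of any single group had them well above background, and the brightest one kept stood for its gene (24279 probes, 16362 genes). Of 41174 probes, 30107 were named by a current RefSeq symbol, 2919 through a synonym and 8148 by the file. limma 3.58.1 in R 4.3.3 fitted a mean per group over 8 arrays (3 residual degrees of freedom) with an intensity trend and Benjamini-Hochberg adjustment, two-sided, and was tested on simulated data. "At least" folds set the bright group's mean against the dim group's detection limit. Arrays carry no read depth; their number limits the precision.

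The members and the 40 lists (910 symbols, 866 tested) were chosen with earlier results of these data known. Genes are named by rule: the 10 largest rises and falls, the 15 largest of each among genes measured on all arrays, the 8 largest beyond all other arrays, 3 per list, and the AKT, Wnt and rapamycin genes. Clone names were passed over. Alternatives covered background correction, scaling, filters, probe choice, slide, replicate block and left-out arrays. Some genes that the naming rule picks are not reported here.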

Additional observations from a re-analysis of the deposited data

How the results depend on the processing

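Limits: 2 arrays a group, unknown relation between arrays, and gene probe signal that was lower at day 14 while spike-in signal was not. Counts moved by over 1.5 times under these settings. Normexp background correction gave 5093 calls, 2419 of them higher. Without a filter on dim probes there were 16629, 12557 of them higher (75.5% of calls, against 50.9%). Keeping only probes well above background on all arrays left 2484 higher, with fewer genes tested. Leaving out 1 array gave 3736 to 4484 calls, 1835 to 2462 higher and 1875 to 2049 lower, and among genes measured on all arrays 2283 to 2736, 1012 to 1352 and 1234 to 1408; a lone array is then assumed to vary like the other groups. Chosen after seeing the data, averaging the day 14 arrays gave 3781, 1847 and 1934, and 2333, 1023 and 1310 among genes measured on all arrays; 3779 of these 3781 were among the calls reported. Leaving out the day 3 array, added likewise, kept 47.7% called.

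Spike-in scaling, also added after seeing the data, moved the median of all genes to -2.4, against 0.022, and gave 13407 calls, 931 higher (6.94% of calls) and 12476 lower. Among genes measured on all arrays it gave 9645, 274 and 9371, and 32 list medians were below 0, against 20. List medians that changed sign were mast cell -0.85, endothelial -0.77, nerve -0.79, erythroid -1.21, ribosomal proteins -2.18, ER folding -1.31, ER traffic -1.78, ATF4 -1.54, FOXO -1.37, PI3K-AKT-mTOR -2.21, mitochondrial respiration -2.32 and matrix remodelling -2.42. Genes that did included Mcpt4 -0.12, Cpa3 -0.86, Kit -1.16, Ccnd2 -0.062, Rpl21 -0.51, Rplp0 -0.70, Ndufa1 -0.85, Dnajc3 -0.54, Atf6 -0.63, Lman1 -0.41, Mcfd2 -0.67, Sec24d -1.04, Deptor -0.33, Map1lc3a -0.15, Irf1 -0.17 and Ifi27 -0.35.

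The ribosomal protein median was -0.61 with quantile normalization, -0.82 with the deposited values and -0.14 with the mean of a gene's probes, and Cpa3 was -0.061 with quantile normalization and -0.039 with the deposited values. The neutrophil median was 1.08 without the filter and 0.81 with probes measured on all arrays. The other scalings moved the median of all genes by little: to 0.157 with normexp, 0.111 with median scaling and -0.119 with the deposited values. The cause of these changes was not tested, except where stated. The replicate block, fitted because the titles number both groups' arrays, gave 7353 calls (44.9%); same-numbered arrays deviated together by a correlation of 0.138 over 2 pairs, and the numbers are not known to pair the samples.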
